A study of Mus musculus with 10 samples.

Results

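Gda, Adap1 and Sla are 3 genes of the mouse neocortex whose transcripts were scarce early in cortical development and abundant at birth. They were chosen by their measured change in these libraries, as the genes ranked 2, 3 and 5 of 6048 by the change of log2(TPM + 1) between E12.5 and P0, and all 3 of them are among the 6147 genes of the deposited table. Because the change chose them, their levels and steps are described here without a test. The gene ranked 1 was Vsnl1 (6.11 on the log2 scale), that ranked 4 was Necab1 (5.28), and the next below Sla was Hpcal4 (4.88).

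The tissue was neocortex, frozen, from wild-type mice of the outbred strain CD1. It was taken on 4 days of gestation, named E12.5, E14, E15.5 and E17 for the embryonic day, and on the day of birth, named P0. Each stage had 2 libraries of polyadenylated RNA, 10 in all, with no treatment and no altered gene in any group. The series' design text calls the libraries biological duplicates, and the labels do not say whether a sample was 1 animal or a pool, nor give sex or litter. Values are TPM, a transcript abundance that divides reads by a gene's length and sets each library to the same total, so that levels of different genes can be compared. TPM keep no record of read depth, so the counting error behind a low value is unknown.

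Gda encodes guanine deaminase, also called cypin, which turns guanine into xanthine in purine breakdown, and which in neurons binds tubulin and the scaffold protein PSD-95 and promotes dendrite branching. Adap1 encodes centaurin-alpha1, a brain-enriched protein that binds the lipid product of PI3-kinase through its PH domains and switches off the small GTPase Arf6. Sla encodes Src-like adaptor protein, which carries the SH3 and SH2 domains of a Src kinase without the kinase domain, and is best known in lymphocytes, where it brings the ubiquitin ligase Cbl to receptors. The neocortex passes over these stages from mostly dividing progenitors to mostly young neurons that grow axons and dendrites and begin to form synapses.

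In GENCODE M21 on GRCm38, all 3 genes are read from the reverse strand. Gda (ENSMUSG00000058624) spans bases 21391307 to 21473445 of chromosome 19, Adap1 (ENSMUSG00000056413) spans 139271876 to 139325622 of chromosome 5, and Sla (ENSMUSG00000022372) spans 66780819 to 66831829 of chromosome 15. Sla sits wholly inside the thyroglobulin gene Tg, which runs on the opposite strand from 66670753 to 66850721, and the 2 genes share 0 exon bases. Adap1 overlaps 1 short noncoding gene on the opposite strand, also with 0 shared exon bases, and Gda overlaps no other annotated gene. Merged over their annotated transcripts, the exons cover 6235 bases in Gda, 3292 in Adap1 and 9186 in Sla.

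The promoters of Gda and Adap1 are shown side by side, since no window was matched for Sla. RefSeq promoter windows on GRCm38.p6 were matched for 2 of the 3 genes, Gda and Adap1, each holding the 250 bases before the start that RefSeq gives. The annotations place the starts differently. The GENCODE span of Gda begins further upstream, at 21473445, so its RefSeq window lies inside the gene as GENCODE draws it, and 158 of the 250 bases of the Adap1 window are exon in GENCODE. The stretch of each window outside the gene's own GENCODE exons is printed 5′ to 3′ along the gene. Capitals mark a match to one of the motifs listed afterwards, on either strand.

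Gda, chr19:21472673-21472911, reverse strand: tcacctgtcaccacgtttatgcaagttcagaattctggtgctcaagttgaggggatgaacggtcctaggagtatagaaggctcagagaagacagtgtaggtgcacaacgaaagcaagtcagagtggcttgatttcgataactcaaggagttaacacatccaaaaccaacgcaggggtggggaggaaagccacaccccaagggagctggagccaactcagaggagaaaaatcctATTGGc

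Adap1, chr5:139325623-139325714, reverse strand: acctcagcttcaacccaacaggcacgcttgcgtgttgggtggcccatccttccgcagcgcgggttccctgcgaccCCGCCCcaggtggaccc

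The promoters were unlike in base composition. Over the whole 250 bases before the RefSeq start, that of Adap1 was 77.6% G or C with 39 CpG pairs, and that of Gda was 50% with 5, where the median of all promoter windows was 52.4% and 6. The Adap1 window held 3 GC boxes (GGGCGG), a motif in 32.7% of 32851 promoter windows, of which 1 lies in the printed stretch and 2 in the GENCODE exon, and the Gda window held none. The Gda window held 1 CCAAT box (CCAAT), a motif in 33.8% of windows, and the Adap1 window held none. Neither held the NeuroD-type E-box CAGATG (14.4% of windows), the E-box CAGCTG (13.0%), the cAMP response element TGACGTCA (1.55%), the T-box element TCACACCT (1.12%) or TATAAA (12.4%). No motif of this set was therefore shared by the windows of the 2 genes. These matches describe letters and not binding.

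In the libraries as a whole, the listed genes made up between 68.9% and 71.7% of all TPM. The E17 libraries were the least alike: their log2 values differed from one another with an SD over genes of 0.285, against between 0.088 and 0.176 at the other stages, so the steps of the 3 genes that use E17 are also given without each of its libraries. Of 14 neuron markers, 11 were in the table, and their summed level was between 2761 and 2797 TPM at E12.5 and between 9452 and 10211 TPM at P0. Of 12 progenitor markers, 9 were in the table, and their summed level was between 1986 and 2085 TPM at E12.5 and between 278 and 283 TPM at P0. The labelled tissue therefore showed markers of neurons and progenitors at every stage. Early libraries also held erythroid and choroid plexus markers, described below beside the step at which both fell.

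Gda was nearly silent at E12.5 and reached a middling level at birth, climbing at every step. It was at 0.238 and 0.406 TPM in the E12.5 libraries, 1.35 and 0.867 TPM at E14, 6.09 and 6.66 TPM at E15.5, and 15.04 and 15.37 TPM at E17. At P0 it was at 59.6 and 72.5 TPM. Each stage lay above the one before with no overlap between libraries, at all 4 steps. In the E12.5 libraries at most 1.35% of listed genes were below Gda, and in the P0 libraries between 64.0% and 68.5% were. Gda rose by 0.67 on the log2(TPM + 1) scale (SE 0.14) up to E14, by 1.82 (SE 0.14) in the step to E15.5, by 1.14 (SE 0.14) in the step to E17 and by 2.04 (SE 0.14) in the step to P0. On this scale the last step was the largest, at rank 3 among 6048 genes. As a ratio of mean TPM the step from E14 to E15.5 was larger, 5.76 against 4.35, and with a pseudocount of 0.1 TPM it was also the larger on the log2 scale (2.45 against 2.11). In TPM, Gda gained 50.9 of its 65.7 TPM between E17 and P0. Its mean at E17 was 23.0% of its mean at P0.

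The whole change of Gda was 5.66 on the log2 scale (SE 0.14), and the ratio of mean TPM between P0 and E12.5 was 205. Since Gda was under 1 TPM in both E12.5 libraries, that ratio is imprecise: it ran from 147 to 305 over single libraries. The log2 change depended on the pseudocount, and was 7.32 with 0.1 TPM and 2.88 with 10 TPM in place of 1 TPM. The ratio from E17 to P0, where Gda was well above 1 TPM, was 4.35, between 3.88 and 4.82 over single libraries.

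Adap1 also rose at every step, from a higher start. It was at 3.23 and 3.73 TPM at E12.5, 6.54 and 5.57 TPM at E14, 28.6 and 29.3 TPM at E15.5, and 64.7 and 67.3 TPM at E17. At P0 it was at 188 and 162 TPM. Both libraries of each stage were above both of the stage before, at all 4 steps. Adap1 rose by 0.65 (SE 0.11) up to E14, by 2.09 (SE 0.11) in the step to E15.5, by 1.16 (SE 0.11) in the step to E17 and by 1.39 (SE 0.11) in the step to P0. Its largest step on the log2 scale was thus from E14 to E15.5, but in TPM it was the last, with 109 of the 172 TPM it gained overall. The whole change was 5.30 (SE 0.11), a ratio of mean TPM of 50.3, between 43.6 and 58.1 over single libraries. Adap1 stood above at most 4% of listed genes in the E12.5 libraries and above 87.8% and 85.4% in the P0 libraries.

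Sla was the most abundant of the 3 genes and had made the largest share of its log2 rise by E15.5. It was at 15.3 and 16.5 TPM at E12.5, 57.3 and 59.0 TPM at E14, 423 and 416 TPM at E15.5, and 425 and 382 TPM at E17. At P0 it was at 514 and 582 TPM. The libraries of E15.5 and E17 overlapped, and those of every other pair of neighbouring stages did not. Sla rose by 1.81 (SE 0.09) from E12.5 to E14 and by 2.83 (SE 0.09) from E14 to E15.5, rank 2 among all genes at both steps. From E15.5 to E17 the difference was -0.06 (SE 0.09), and from E17 to P0 Sla rose by 0.44 (SE 0.09), rank 321. By E15.5 it stood above 95.1% of listed genes in both libraries, and its mean of 419 ± 5.34 TPM (SD, n = 2) was 76.5% of its mean at P0. The whole change was 5.02 (SE 0.09), a ratio of mean TPM of 34.4, between 31.1 and 38.0 over single libraries.

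**Figure D1:**
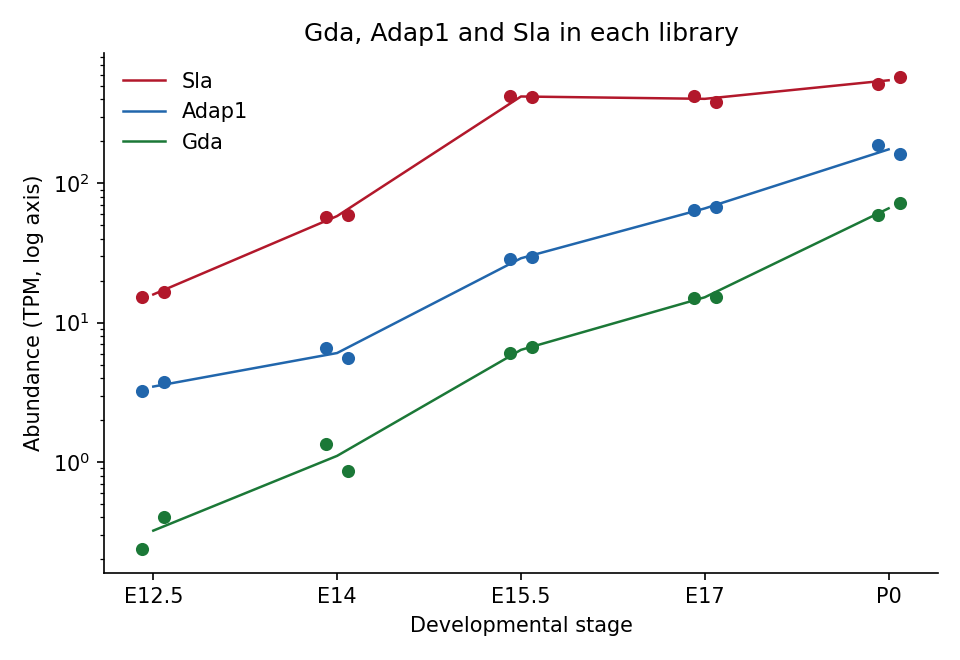
Abundance of Gda, Adap1 and Sla in TPM (log axis) in each of the 10 libraries, with stages on the horizontal axis; points are libraries and lines join the means of 2 libraries. Sla climbs to 419 TPM by E15.5 and then levels off, while Gda and Adap1 climb at every step.

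**Figure D2:**
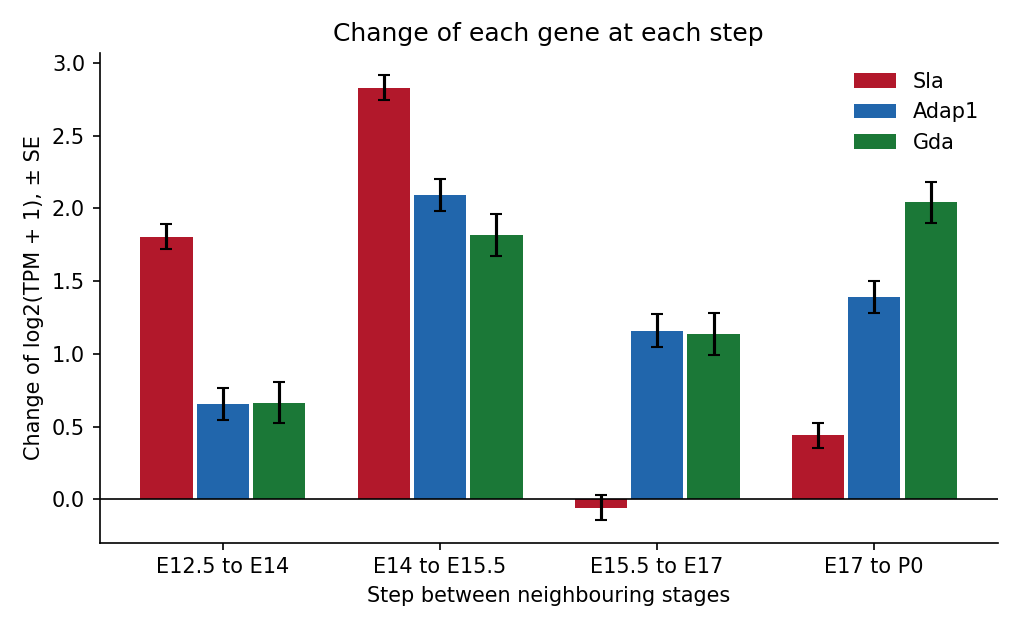
Change of log2(TPM + 1) between neighbouring stages for each gene, with bars at the estimate and error bars of 1 SE from the fit over all genes. With this pseudocount of 1 TPM the tallest bars are at E14 to E15.5 for Sla (2.83) and Adap1 (2.09) and at E17 to P0 for Gda (2.04).

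Groups that did not overlap were common among all genes. Both later libraries lay above both earlier ones in 24.7% of the 6048 genes in the step to E14, 31.6% in that to E15.5, 30.7% in that to E17 and 22.0% in that to P0. Between E12.5 and P0 the share was 32.5%. The 3 genes did so at every one of these steps, with the exception of Sla from E15.5 to E17, but as they were chosen for rising, nothing is read from that count. Leaving out an E17 library moved the steps of Gda and Adap1 little. The Gda step from E17 to P0 came to 2.03 when E17 replicate 1 was left out and 2.06 when E17 replicate 2 was, and that of Adap1 to 1.36 and 1.42. In the same order, the step from E15.5 to E17 was 1.15 and 1.12 for Gda and 1.19 and 1.13 for Adap1, and the Sla step from E17 to P0 was 0.52 and 0.36. The Sla difference from E15.5 to E17 became -0.14 when E17 replicate 1 was left out and 0.0195 when E17 replicate 2 was, so it has no settled sign.

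The genes had been grouped as late rising, which did not hold for Sla. Gda and Adap1 rose later than Sla, but how late they were depended on the pseudocount. By E14 Sla had gained 36.0% of its whole log2 rise, Adap1 12.4% and Gda 11.8%. By E15.5 the shares were 92.4% for Sla, 51.8% for Adap1 and 43.8% for Gda. Taking 1 library per stage in all combinations, the share by E15.5 ran from 90.4% to 94.4% for Sla, from 49.7% to 53.9% for Adap1 and from 40.9% to 46.8% for Gda, and these ranges did not overlap. By E17 the shares were 91.2%, 73.7% and 63.9%. The gap between Adap1 and Gda rests on the pseudocount: with 0.1 TPM their shares by E15.5 were 53.9% and 54.2%, whereas that of Sla stayed at 92.5%.

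To place these shares, they were set beside those of all 246 genes that gained at least 2 on the log2 scale between E12.5 and P0, the 3 genes included. Their median share by E15.5 was 61.4%, with the quartiles at 53.3% and 70.9%. Sla lay above that range, and 9 of the 246 genes had a higher share. Gda lay below it, and 34 genes had a lower share. Adap1 was just below it, with 56 genes lower. By E14 the shares of Gda and Adap1 were inside the quartiles, which were 10.6% and 21.2%. These positions were taken with a pseudocount of 1 TPM. By E14 only 3 genes had a higher share than Sla. The plot of the share of the rise, also at 1 TPM, shows Sla leaving the other 2 genes at the first step. For Gda that gap rests partly on the pseudocount. Its ratio of mean TPM from E12.5 to E14 was 3.44, against 3.65 for Sla and 1.74 for Adap1. With 0.1 TPM the log2 step of Gda was 1.52, against 1.86 for Sla and 0.78 for Adap1.

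**Figure D3:**
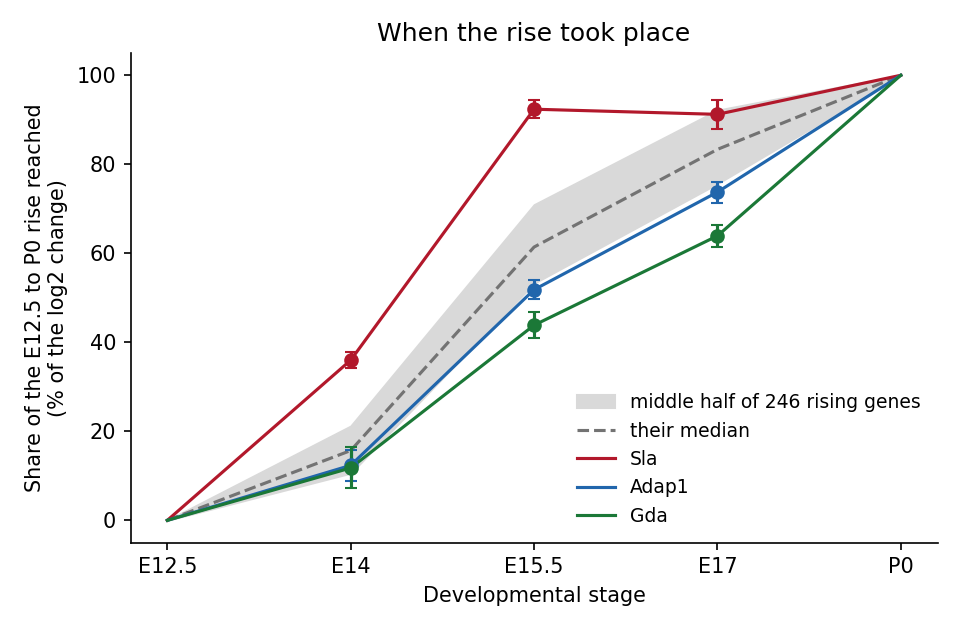
Share of each gene's E12.5 to P0 change of log2(TPM + 1) reached at each stage, in percent; the end points are 0 and 100 by construction. Error bars give the range over single libraries, and the grey band and dashed line give the quartiles and the median of 246 genes that rose by at least 2. Sla is above the band at E14 and E15.5 and Gda below it at E15.5 and E17.

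The order of the 3 genes by TPM was the same in 10 of 10 libraries, with Sla highest and Gda lowest, but the distances changed. The ratio of Sla to Adap1 in TPM was 4.74 and 4.44 in the E12.5 libraries, 14.8 and 14.2 at E15.5, and 2.74 and 3.59 at P0. It therefore widened while Sla rose and closed after Sla had levelled off. The ratio of Sla to Gda was between 40.7 and 69.4 in the 6 libraries up to E15.5, and was 28.3 and 24.8 at E17 and 8.62 and 8.03 at P0. Adap1 exceeded Gda 13.6 and 9.18 times at E12.5, 4.85 and 6.42 times at E14, 4.69 and 4.41 times at E15.5, 4.31 and 4.38 times at E17 and 3.15 and 2.24 times at P0.

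Neurons are known to become more frequent over these stages, and in bulk tissue more cells of a type and more RNA per cell cannot be told apart. Each gene was therefore also set against the mean log2(TPM + 1) of 11 neuron markers in the same library, among them the tubulin gene Tubb3, the synaptic genes Snap25, Syt1 and Syp, and the neurofilament genes Nefl and Nefm. That mean rose from 6.49 at E12.5 to 6.83 at E14, 8.14 at E15.5 and 8.37 at E17, and reached 8.56 at P0. All 11 markers were higher at P0 than at E12.5, by between 0.56 for Neurod2 and 3.68 for Nefl (limma adjusted p between 4.65e-11 and 0.0018). Neurod2 and Dcx had reached 187.7% and 126.9% of that change by E15.5, so both fell from E15.5 to P0. Every other marker was below its P0 level at E15.5.

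Against these markers, Sla went from -2.45 and -2.36 at E12.5 to 0.61 and 0.53 at E15.5, and was at 0.53 and 0.56 at P0. Its difference between E15.5 and P0 was -0.03, smaller than the spread between libraries, but it was 0.34 against the median of the markers. Gda went from -6.17 and -6.00 at E12.5 to -5.29 and -5.24 at E15.5 and to -2.56 and -2.43 at P0. Adap1 went from -4.40 and -4.25 to -3.23 and -3.25 and then to -0.92 and -1.28. From E15.5 to P0, Gda thus gained 2.77 and Adap1 2.14 on the neuron markers, more than the 0.82 and 1.09 they had gained before E15.5. For Sla the order was the opposite, with 2.98 gained before E15.5. Gda was under 1 TPM at E12.5, so the pseudocount of 1 TPM shrinks its early gain. With 0.1 TPM the steps of Gda itself up to E15.5 were 1.52 and 2.45, in place of 0.67 and 1.82.

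**Figure D4:**
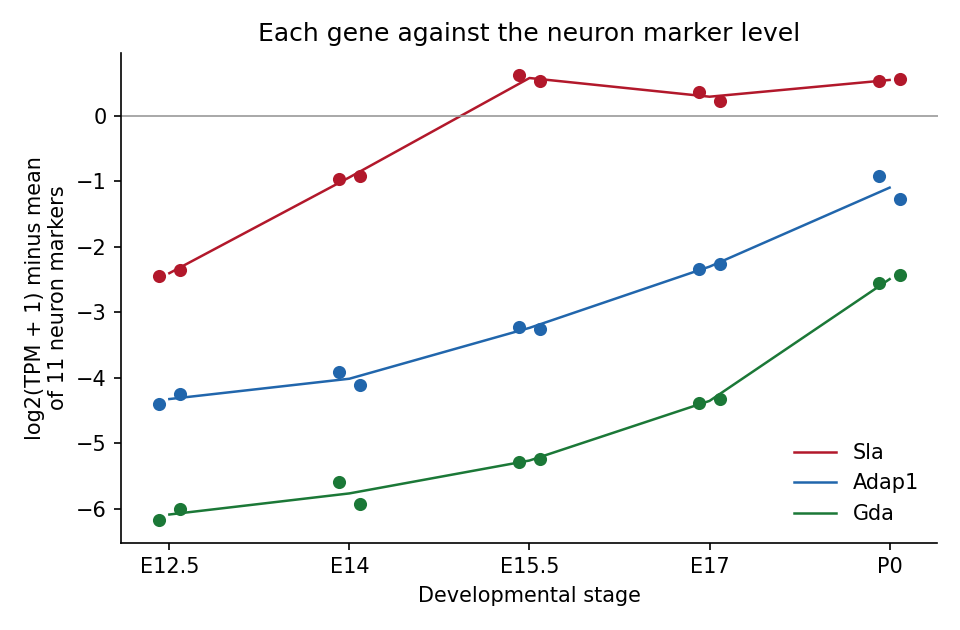
log2(TPM + 1) of each gene minus the mean of 11 neuron markers in the same library; points are libraries, lines join stage means, and 0 is the marker level. Sla passes the marker level by E15.5 and is at 0.53 and 0.56 at P0, while Gda and Adap1 are still below it at birth.

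The step from E14 to E15.5, the largest of Sla and Adap1, was also a step at which erythroid, choroid plexus and vascular markers fell. Of 12 erythroid markers, 3 were in the table. Their sum was between 4323 and 4494 TPM at E12.5 and between 1880 and 1975 TPM at E14. At E15.5 it was between 9.26 and 9.84 TPM. Hbb-y made up most of it at E14 (between 1863 and 1951 TPM). Slc4a1 went from between 2.17 and 2.44 TPM at E14 to between 0.72 and 0.88 TPM at E15.5. The 2 of 8 choroid plexus markers, Ttr and Clic6, summed to between 303 and 452 TPM at E12.5. At E14 their sum was between 1405 and 1517 TPM, and at E15.5 between 3.46 and 4.25 TPM. Both sums had thus also changed between E12.5 and E14, in opposite directions. The endothelial gene Cdh5, the only 1 of 10 vascular markers in the table, went from between 9.26 and 9.78 TPM to between 1.18 and 1.34 TPM. When the listed genes were rescaled without globins and Ttr, the step was 2.83 for Sla, 2.09 for Adap1 and 1.81 for Gda, the same to within 0.01 as before. Whether a different cut of the tissue at E15.5 took part in the step was not tested.

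Sla is also made by blood-derived cells, so microglia were looked at beside it. C1qb, a complement gene of microglia, was at 7.96 and 8.23 TPM at E12.5, 7.21 and 8.93 TPM at E14 and 4.66 and 4.93 TPM at E15.5, while Sla went from 57.3 and 59.0 TPM at E14 to 423 and 416 TPM at E15.5. At P0 C1qb was at 7.07 and 7.81 TPM. Of the 11 lymphocyte and 7 oligodendrocyte lineage markers, 0 were in the table, so RNA of those cells could not be assessed from them. The 5 of 8 astrocyte markers in the table summed to between 343 and 370 TPM at E12.5, between 224 and 227 TPM at E15.5 and between 285 and 290 TPM at P0. The sum hides members that went the other way: Gfap and Aldh1l1, named after their values were seen, were among the 246 genes that gained at least 2 on the log2 scale.

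The genes with the profile most like each of the 3 were then found. Likeness was the root mean square difference of log2(TPM + 1) over the 10 libraries, each gene centred on its own mean, among 5441 genes that averaged 10 TPM or more. For Gda the closest was Vsnl1, a neuronal calcium sensor, at 0.20, followed by Adap1 at 0.26, the calcium-binding protein gene Necab1 at 0.37, the GABA transporter gene Slc6a11 at 0.44 and the kinase anchor gene Akap7 at 0.47. The median over all compared genes was 2.14. For Adap1 the closest were Necab1 at 0.22, Gda at 0.26, Akap7 at 0.29, Vsnl1 at 0.32 and the small GTPase gene Diras2 at 0.35. Gda and Adap1 were thus each at rank 2 in the other's list.

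Sla had other neighbours, with the exception of Diras2, which was also in the list of Adap1. The closest was Dync1i1, a dynein intermediate chain gene, at 0.27, which had 6.02 TPM at E12.5, 108 TPM at E15.5 and 154 TPM at P0. Next came Rgs6, a regulator of G protein signalling, at 0.39, the kinase subunit gene Camk2b at 0.48, the calcium sensor gene Hpcal4 at 0.50 and Diras2 at 0.53. Adap1 was at rank 36 for Sla, with a difference of 0.79, and Gda at rank 73, with 0.97. Dync1i1 had gained 88.6% of its log2 rise by E15.5 and Rgs6 83.0%, against 46.7% for Vsnl1, the closest neighbour of Gda. All of these genes shared the same 10 libraries and the same trend with age, so likeness is a description and carries no test.

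The pathways in which the 3 proteins act were examined between E12.5 and P0 with limma over all 6048 genes, where a gene was called at a Benjamini-Hochberg adjusted p under 0.05. Among all genes, 27.1% were called higher at P0 and 51.0% lower, with a median change of -0.27. Under median-of-ratios scaling 2292 genes were called higher and 2283 lower, against 1641 and 3087 on TPM as deposited, so list counts are given on both scales where they part. The 3 genes themselves were left out of the lists.

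Around guanine deaminase, the genes that make purines from small precursors were mostly lower at birth. Of 14 purine synthesis genes tested, 11 were called lower and 3 higher, with a median of -0.59. Paics fell by 1.64 (SE 0.07, limma adjusted p 2.55e-09), from 317 to 101 TPM, and Gart fell by 1.53 (SE 0.10, limma adjusted p 5.37e-08), from 40.4 to 13.3 TPM; both encode enzymes of the synthesis of the purine ring. The 3 that rose were Impdh1 (1.26, from 23.7 to 58.3 TPM), Guk1 (from 47.1 to 95.5 TPM) and Adss (0.56). Impdh1 and Guk1 encode enzymes of guanine nucleotide production. The related Impdh2, named here after its values were seen, fell by 1.22, from 150 to 63.6 TPM. Under median-of-ratios scaling 7 genes of the list were called lower and 3 higher.

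Of 16 genes of purine salvage and breakdown tested, 6 were called higher, 6 lower and 4 neither, with a median of -0.10. Under median-of-ratios scaling 8 were higher and 5 lower, and the median was 0.17. Ampd3 and Ampd2, both AMP deaminases, rose by 1.57 (SE 0.12, limma adjusted p 2.09e-07) and 0.70 (SE 0.13, limma adjusted p 0.000312), from 0.497 to 3.44 TPM and from 14.6 to 24.3 TPM. The deoxynucleoside kinase gene Dck fell by 1.95, from 312 to 79.9 TPM, and Samhd1, which breaks down deoxynucleotides, fell by 1.71. Pnp, which releases the guanine that Gda acts on, fell by 1.16 (SE 0.11, limma adjusted p 1.3e-06), with 36.3 and 38.6 TPM at E12.5 and 15.4 and 17.1 TPM at P0. Its direction was opposite to that of Gda, and was that of the 51.0% of all genes called lower. Xdh and Hprt were not analysed here.

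The scaffold to which Gda binds was mostly higher at birth. Of 13 genes of the Dlg family and its partners, 9 were called higher and 3 lower, with a median of 1.16. Dlg4, which encodes PSD-95, had 64.3 and 69.9 TPM at E12.5 and 235 and 222 TPM at P0, a rise of 1.75 (SE 0.09, limma adjusted p 5.2e-09). Its mean was 162 TPM at E15.5 and 201 TPM at E17. Its E17 mean was thus nearer to its P0 mean than that of Gda, which was at 23.0%. Dlg2, which encodes PSD-93, rose by 3.91 (SE 0.11, limma adjusted p 8.1e-11), from 8.68 to 145 TPM, and Dlgap1, a partner of PSD-95, rose by 3.61. Dlg1 fell by 1.31 (SE 0.10, limma adjusted p 3.11e-07) and Homer3 fell by 1.37. Dlg3 was not called (-0.0039, limma adjusted p 0.976), but it was higher under median-of-ratios scaling (0.26, adjusted p 0.0175).

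Adap1 belongs to the proteins that turn Arf GTPases off. Of 33 other genes of the Arf cycle tested, 19 were called higher, 7 lower and 7 neither, with a median of 0.39; under median-of-ratios scaling 22 were higher and 3 lower. Psd, an exchange factor that turns Arf6 on, rose by 4.03 (SE 0.13, limma adjusted p 1.54e-10), from 8.93 to 161 TPM. Agap2, which turns Arf GTPases off, rose by 3.64 (SE 0.12, limma adjusted p 1.76e-10), from 11.4 to 154 TPM. Acap2, which acts on Arf6 as Adap1 does, fell by 1.13 (SE 0.12, limma adjusted p 3.12e-06), from 36.6 to 16.2 TPM, and Arfgap2 fell by 0.77. Proteins that turn Arf GTPases off were thus found among both the rising and the falling genes.

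Arf6 itself, the GTPase that Adap1 switches off, was abundant throughout, with 246 and 224 TPM at E12.5 and 172 and 173 TPM at P0. It fell by 0.44 (SE 0.08, limma adjusted p 0.000255), a call that was lost under median-of-ratios scaling (-0.17, adjusted p 0.101). Kif13b, a kinesin that binds Adap1, fell by 0.68 (SE 0.19, limma adjusted p 0.00545) at a low level, from 4.52 to 2.44 TPM. That call did not hold with quantile normalization (-0.01, adjusted p 0.962) or without P0 replicate 1 (-0.61, adjusted p 0.0531). Nardilysin, listed under its older symbol Nrd1 and also known to bind Adap1, fell by 0.59 (SE 0.10, limma adjusted p 0.000149). Adap2 was not analysed here.

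The lipid that Adap1 binds is made by PI3-kinase, and of 16 genes of that pathway 6 were called higher, 6 lower and 4 neither, with a median of -0.16. Under median-of-ratios scaling 6 were higher and 5 lower, with a median of 0.11. Under quantile normalization 7 were higher and 3 lower, where 2214 of all genes were higher and 2419 lower. Pik3r1, a regulatory subunit of PI3-kinase, rose by 2.18 (SE 0.11, limma adjusted p 6.44e-09), from 23.1 to 109 TPM. Inppl1, a phosphatase that removes the lipid, fell by 2.44 (SE 0.16, limma adjusted p 5.13e-08), from 46.9 to 7.84 TPM. Inpp4a, which acts on the next lipid of that path, rose by 1.30, and the class II kinase gene Pik3c2a fell by 1.44.

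Among the Src kinases, Cbl proteins and adaptors near Sla, 7 of 19 genes tested were called higher and 10 lower, with a median of -0.30, close to that of all genes. Under median-of-ratios scaling 8 were higher and 7 lower. Cbl, the ubiquitin ligase that Sla binds, had 82.3 and 87.2 TPM at E12.5 and 25.1 and 31.6 TPM at P0, a fall of 1.55 (SE 0.20, limma adjusted p 1.72e-05). By stage its mean was 69.7 TPM at E14, 46.4 TPM at E15.5 and 48.2 TPM at E17. Sla was thus below Cbl in TPM at E12.5 and E14 and above it from E15.5 on.

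Of the Src kinases, Fyn rose by 0.63 (SE 0.07, limma adjusted p 9.77e-06), from 114 to 178 TPM. Src was not called (-0.30, limma adjusted p 0.0653), from 109 to 88.0 TPM, and passed the threshold with only the libraries of E12.5 and P0 in the fit (adjusted p 0.00241) and when E17 replicate 1 (0.00114) or E17 replicate 2 (0.00113) was left out. The largest rises of the list were those of Shc3, an adaptor of neurons (0.94, limma adjusted p 0.0087), and Dab1, the adaptor of Reelin signalling (0.91, limma adjusted p 2.39e-06). The adaptor Nck1 (-1.61, limma adjusted p 4.77e-08) and Cbl had the largest falls. The call of Shc3 was lost without P0 replicate 2 (0.52, adjusted p 0.141). Sla2 was not analysed here.

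**Figure D5:**
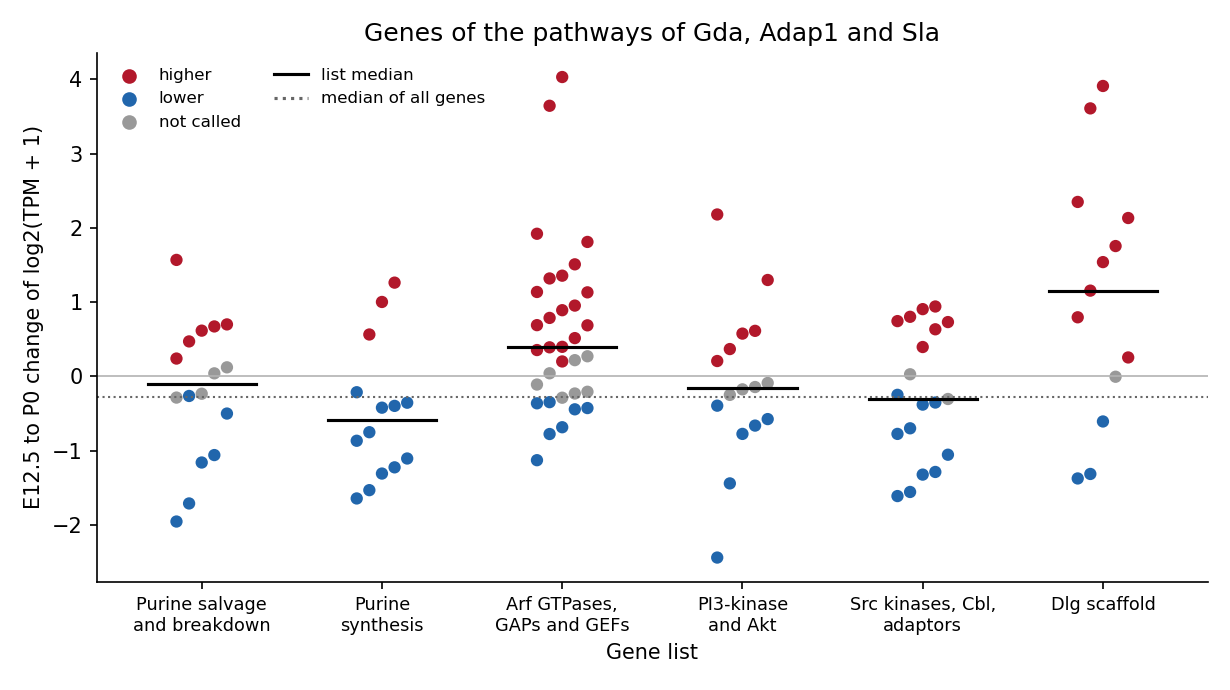
Change of log2(TPM + 1) from E12.5 to P0 for each tested gene of 6 lists, coloured by its limma call; black bars are list medians and the dotted line is the median of all genes (-0.27). The Dlg scaffold and Arf lists have medians above 0 (1.16 and 0.39), and purine synthesis has the lowest (-0.59).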

How the data were processed

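Per the labels' protocols, frozen neocortex was pulverised in detergent buffer, the lysate was cleared by spinning, and polyadenylated RNA was made into stranded libraries. The deposited values are TPM, per the file headers. The submitters' processing notes name STAR, Subread and GRCm38.p5. The sources used here do not give the gene lengths, the use of strand in counting or the choice of listed genes. TPM are shares of a total, so abundant genes that rise lower the values of others. Columns were matched to libraries by title, and 0 columns were left without a sample.

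Genes with a mean under 1 TPM were left out (99 of 6147); Gda, Adap1 and Sla all passed. limma 3.58.1 in R 4.3.3 was fitted to log2(TPM + 1), with 1 mean per stage over 10 libraries (5 residual degrees of freedom) and trended empirical Bayes moderation. P-values were adjusted by Benjamini-Hochberg over 6048 genes. A change on this scale understates that of low genes. The fit was tested on simulated data. Members, lists and motifs were chosen with earlier results of these data known. Named genes were the 3 members, known partners, the 5 nearest profiles per member and the 2 largest called rises and falls per list. Tables and figures used pandas 2.3.3, numpy 2.4.6 and, for drawing, matplotlib 3.10.9, under Python 3.11.15. Alternatives were other pseudocounts, filters, scalings and variance models, a replicate block, only the 2 stages compared and each library left out.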

Additional observations from a re-analysis of the deposited data

How the results depend on the processing

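With a pseudocount of 0.1 TPM the change from E12.5 to P0 was 7.32 for Gda and 5.61 for Adap1, and the share of the rise by E15.5 was 54.2% and 53.9%. With 10 TPM the changes were 2.88 for Gda, 3.78 for Adap1 and 4.43 for Sla, and the shares of Gda and Adap1 were 23.1% and 40.6%. Under quantile normalization these shares were 45.7% and 55.0%, and the Adap1 change was 5.55. Under median-of-ratios scaling the change was 5.54 for Adap1 and 5.29 for Sla. The share by E15.5 was highest in Sla and lowest in Gda in 14 of 15 alternatives, the exception being 0.1 TPM. The largest step was E14 to E15.5 for Sla in 15 of 15, E14 to E15.5 for Adap1 in 14 (with 10 TPM it was E17 to P0), and E17 to P0 for Gda in 14 (with 0.1 TPM it was E14 to E15.5). Without single libraries the Sla difference from E15.5 to E17 ran from -0.14 to 0.0195, and Dlg3 from -0.12 to 0.11. Dlg3 was 0.28 under quantile normalization, 0.26 under median-of-ratios scaling and 0.0194 when rescaled without globins and Ttr. Against the median of the neuron markers, an alternative chosen after seeing the data, Sla gained 0.34 from E15.5 to P0.

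The total number of called genes, both directions together, stayed within 1.5 times for all 6 lists and for all genes in each of 21 alternatives. Counts in 1 direction moved further: genes called lower went from 7 to 3 in the Arf list and from 11 to 7 in purine synthesis under median-of-ratios scaling, and from 6 to 3 in the PI3-kinase list under quantile normalization. Over all genes, 3087 were called lower in the main fit, 2283 under median-of-ratios scaling and 2419 under quantile normalization. With the replicate block 4676 genes were called in place of 4728. Same-numbered libraries did not deviate together (correlations between -0.375 and 0.107 over 10 pairs of stages), so the numbers were not taken to pair the samples. Depth is unknown, which limits Gda below 1 TPM most.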

Other observations

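A further set of genes made most of its rise as early as Sla did. Of the 246 genes that gained at least 2 in log2(TPM + 1) between E12.5 and P0, 14 had gained at least 90% of the rise by E15.5, a limit chosen after the values were seen. Sla had the largest whole change of them (5.02). The next by whole change were Spock1 (3.09), Clstn2 (3.08) and the NMDA receptor subunit gene Grin2b (2.77). Grin2b was at 9.44, 62.9 and 70.6 TPM at E12.5, E15.5 and P0. By E17 the shares of Spock1, Clstn2 and Grin2b were 109.8%, 128.7% and 128.9%, above their P0 level, against 91.2% for Sla. At the other end, 35 of the 246 genes, Gda among them, had gained no more than 43.8% by E15.5.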
